A study of Rattus norvegicus with 3 samples.

Results

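The AP-1 transcription factors are described here through 8 genes, Fos, Fosb, Fosl1, Fosl2, Jun, Junb, Jund and Atf3, out of 8899 genes that could be named on the array. All probes whose RefSeq accession belongs to a member were taken, which gave 8 probes for 7 members. No probe was matched to Fosb. RNA was taken from the vestibular nuclei, where balance signals of the inner ear enter the brainstem, of Sprague-Dawley rats that were adult males of 200 to 250 g. One array held the nuclei of the operated side 1 day after the left labyrinth (the balance organ) had been removed, one held the same nuclei at 7 days, and one held nuclei of controls that the sample labels call sham-operated and the protocol text calls normal. The labels name 3 rats for each group because one nucleus yields little RNA. Each array therefore seems to hold pooled tissue, and the labels do not say which side was taken from controls.

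AP-1 is a family of dimeric DNA-binding proteins. Fos proteins cannot pair with each other and bind DNA together with a Jun protein, whereas Jun proteins can also pair among themselves, and Atf3 pairs with Jun proteins or with itself. Fos and Junb are immediate-early genes, transcribed within minutes of neuronal firing and silent again soon afterwards. Jun and Atf3 are known for staying high in neurons whose axons have been cut, and Jund is expressed broadly in resting tissue. In brainstem vestibular nuclei, Fos has long been used to map neurons that fire after loss of one labyrinth.

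With 1 array per group there was no replicate and nothing could be tested, and each difference below is one array over another. Levels are log2 of the processed intensity over the array's own 75th percentile, which was 5242 at day 1, 5676 at day 7 and 5692 in sham. Errors marked as scanner errors are the scanner software's own estimate for a spot and hold no variation between animals, dissections or labellings. A gene counted as measured where its brightest probe cleared background, without saturation, on both arrays of a comparison, and it was counted as different at 2-fold. Spots well above background made up 77.3% at day 1, 76.9% at day 7 and 81.3% in sham, and the dimmest such signal was 109.0, 121.6 and 66.9 intensity units in that order. All 3 arrays lay on 1 slide, each at its own position, so position and group cannot be told apart. All 5 named neuron markers and the glutamate transporter Slc17a6 were well above background on every array. Of 3 named cerebellar markers, Gabra6 (granule cells) was above background on no array, Neurod1 (granule cells) was above it in sham alone, at 214.8 intensity units, and Calb1, which marks Purkinje cells among other neurons, was bright at 13868 at day 1, 20477 at day 7 and 12178 in sham. Slc6a5, the transporter that marks glycine neurons, was at 6595.8 intensity units at day 1, 201.9 at day 7 and 7762.7 in sham.

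Of the 8 members, 4 (Fos, Jun, Junb and Atf3) were measured on all 3 arrays. On the day 1 array, 1 of these 4 was at least 2-fold lower than sham and none was 2-fold higher. Of 6292 measured genes, 12.6% differed by that size, 8.26% higher and 4.37% lower. On the day 7 array, 1 of 4 was at least 2-fold higher than sham and none lower, beside 16.9% of 6261 genes, 11.1% higher and 5.73% lower. Between the days, 2 of 4 were higher at day 7 and none lower, beside 11.9% of 6142 genes, 6.56% higher and 5.32% lower. Relative to sham the median log2 fold of the 4 was -0.54 at day 1 and -0.04 at day 7, beside 0.00 and 0.05 over all measured genes. Between the days it was 0.59, beside 0.04. Both comparisons against sham use the same control array. With 4 measured members and so few past 2-fold, the counts describe single genes rather than a family.

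**Figure D1:**
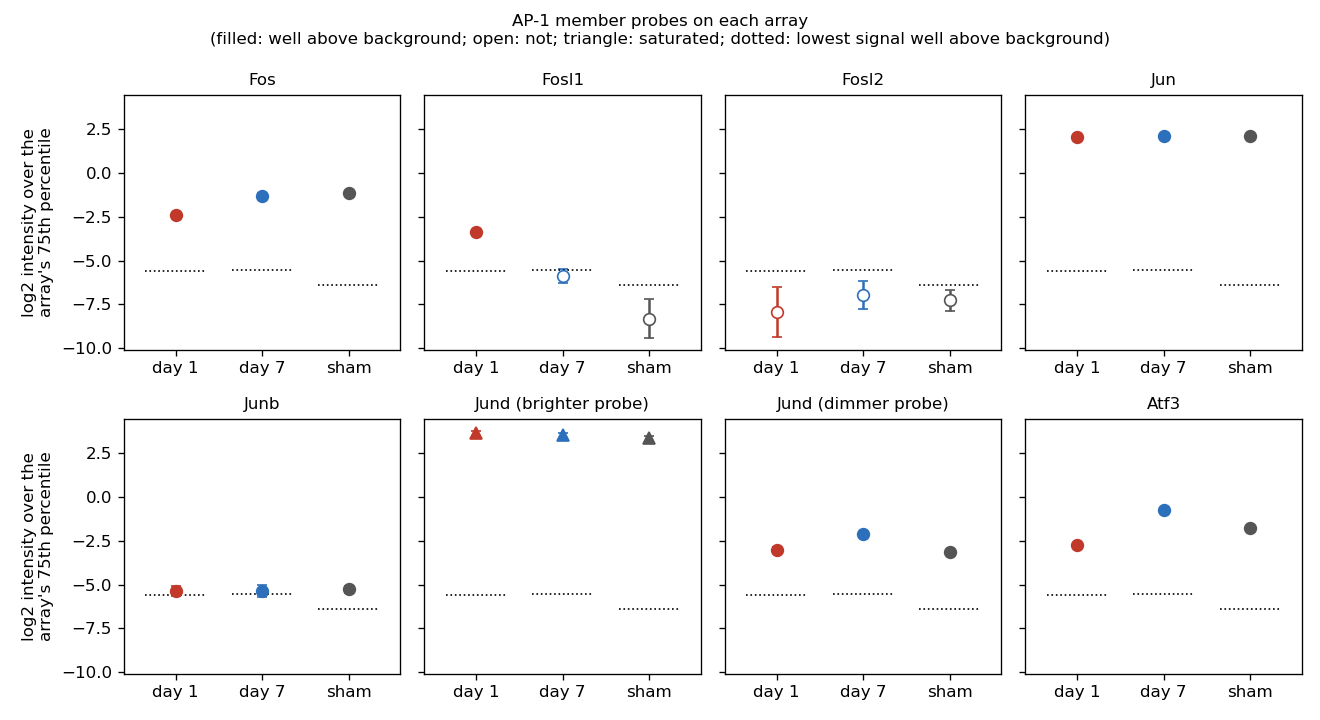
Level of each AP-1 member probe (log2 intensity over the array's 75th percentile) on the day 1, day 7 and sham arrays, with scanner errors (for Jun, the SD of its spots). Fos and Atf3 are lowest at day 1, Jun and Junb are near level across arrays, Fosl1 is well above background at day 1 alone, Fosl2 on no array, and the brighter Jund probe is saturated on all 3.

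Fos, the partner of Jun in the classical AP-1 dimer and the usual mark of recently active neurons, was low on the day 1 array. Its single spot read 990.5 intensity units at day 1 and 2338.5 at day 7, against 2548.6 in sham. The day 1 array stood apart from the other two, which differed from each other by less than the scanner error. The log2 fold was -1.24 ± 0.21 (scanner error) at day 1 against sham, or 2.37-fold lower, and 2.75% of measured genes had a lower fold. The day 7 array over sham gave -0.12 ± 0.20, and day 7 over day 1 gave 1.12 ± 0.21. In bulk tissue, fewer cells of a type and less RNA per cell cannot be told apart.

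Most, though not all, markers of microglia and macrophages were also lower on the day 1 array than in sham. Of 5 named markers, 3 were above background at day 1, 4 at day 7 and 4 in sham, and their summed intensity was 3812.7 at day 1, 8063.2 at day 7 and 8234.2 in sham. Aif1, a defining marker, was at -1.08 at day 1 and -0.15 at day 7 against sham, and Csf1r, the receptor for macrophage growth factor, at -0.93 and 0.23. Itgam and Cd68 were above background in sham and not at day 1. Cx3cr1, another microglia marker, went the other way, reading 232.8 intensity units at day 1 and 203.3 at day 7, both above background, against 28.4 in sham, which was not. The part of these cells in the Fos value was not tested. By distance between the pairs of log2 folds at day 1 and day 7 against sham, the 3 nearest patterns to Fos among 3021 brighter genes were Aif1 (0.16 log2 units away), Adam9 (0.19) and Tgfbr1 (0.21). A pattern here consists of 2 folds from 3 arrays that share one control, and the Fos probe itself was dimmer than the genes it was set beside. Dimmer genes were left out of that search, and at least one of them lay nearer to Fos than Aif1. This was Ttr, a marker of choroid plexus, at -1.20 at day 1 and -0.10 at day 7 against sham.

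Fosl1 (Fra-1), a Fos relative without the strong activation domain of Fos, was the only member whose detection differed between arrays. Its spot read 503.9 intensity units at day 1, 96.9 at day 7 and 17.8 in sham. It was well above background at day 1 and on neither of the other arrays. The day 1 level was at least 8.18-fold higher than sham, taking the dimmest signal well above background in sham as the floor, and the day 7 level was at least 4.49-fold lower than day 1 on the same footing. No fold is given for day 7 against sham, since neither spot rose well above background. Fosl1 lay opposite to Fos on the day 1 array, high where Fos was low, although 1 spot stands behind each of them.

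Promoter sequence from RefSeq (GRCr8 build) was at hand for 5 of the 8 members and was searched on both strands, over the 250 bases before the gene start, for the AP-1 site TGANTCA, the cAMP response element TGACGTCA, which binds Creb1 and Jun-Atf dimers, and the CArG box, the site of serum response factor. The window of Fosl1 is shown because Fosl1 alone was detected on one array and not on the others. It lies at chr1:212183635-212183884 on the plus strand.
Fosl1 promoter: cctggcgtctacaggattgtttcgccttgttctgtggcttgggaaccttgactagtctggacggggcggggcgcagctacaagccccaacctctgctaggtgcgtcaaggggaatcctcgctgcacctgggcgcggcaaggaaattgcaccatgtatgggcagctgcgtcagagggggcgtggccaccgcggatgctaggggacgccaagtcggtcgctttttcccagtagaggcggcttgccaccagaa
None of these motifs occurs in this window, which is why no letters are in capitals. TGANTCA occurs in 6.36% of 27457 rat promoter windows of this length, TGACGTCA in 1.70% and the CArG box in 1.5%.

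Fosl2 (Fra-2), the other Fos relative on the array, was not well above background on any array. Its spot read 21.7 intensity units at day 1, 45.0 at day 7 and 36.8 in sham, below the dimmest signal called on each array. These values have no order and give no fold.

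Jun, which can form AP-1 with any member, was bright and level. Its probe lay on 10 spots per array, of which 9 at day 1, 9 at day 7 and 10 in sham carried no outlier flag. These spots ranged from 21286 to 23089 intensity units at day 1 with a median of 22372, from 23766 to 26593 at day 7 with a median of 25069, and from 22425 to 26297 in sham with a median of 24742. The spots of the 3 arrays overlapped once scaled, with means of 2.09 ± 0.03 at day 1, 2.15 ± 0.06 at day 7 and 2.12 ± 0.07 in sham on the log2 scale (SD over spots of one array, which are not biological replicates). Over sham the log2 fold was -0.04 at day 1 and 0.02 at day 7, and day 7 over day 1 gave 0.06, with errors of 0.02, 0.03 and 0.02 from the spots alone. Measured genes with a fold of larger size made up 92.9% at day 1 and 97.1% at day 7, both over sham, and 88.9% between the days. The sign of the Jun fold against sham on either day depended on the scaling or background correction. The nearest patterns were those of Nup93 and Tmed9 (both 0.01 log2 units away) and Myo5a (0.02).

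**Figure D2:**
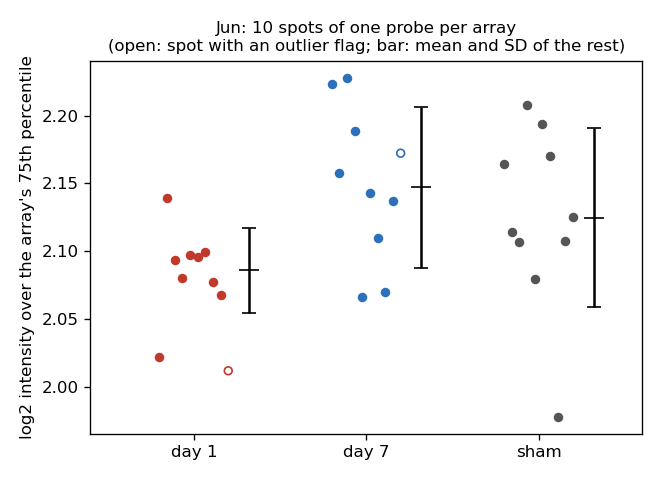
Each point is 1 spot of the Jun probe on the day 1, day 7 or sham array, as log2 intensity over the array's 75th percentile, with the mean and SD of unflagged spots beside it. Scaled spots of the 3 arrays overlap around means of 2.09, 2.15 and 2.12.

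Junb, the immediate-early Jun protein that competes with Jun, was at the dim end. Its spot read 126.8 intensity units at day 1 and 136.8 at day 7, against 147.8 in sham, close to the dimmest signal called on the arrays after surgery. The log2 fold was -0.10 ± 0.36 (scanner error) at day 1 and -0.11 ± 0.38 at day 7 against sham, and -0.01 ± 0.44 between the days. The 3 arrays did not differ by more than this error. At this brightness the probe could not have shown a 2-fold decrease from sham on the arrays after surgery, since a signal that far below sham would lie under the dimmest called signal of either array.

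Jund, the Jun protein of resting cells, was read by a pair of probes that cannot be checked against each other. The brighter probe was saturated on all 3 arrays, at 65288 intensity units at day 1, 65573 at day 7 and 58409 in sham, and gives no fold. The dimmer probe read 641.4 units at day 1, 1304.8 at day 7 and 638.6 in sham. Day 7 stood above the other arrays, which lay within the scanner error of each other. By this probe the log2 fold over sham was 0.13 ± 0.21 at day 1 and 1.04 ± 0.21 at day 7, and day 7 over day 1 gave 0.91 ± 0.21. Counting Jund by its measurable probe, a choice made after its values were seen, gave 2 of 5 members at least 2-fold higher at day 7 against sham, beside 11.1% of 6321 genes read in the same way.

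Of the 5 promoter windows searched, that of Jund was the only one to hold any of the motifs, so it is shown with the match in capitals. The window lies at chr16:18769772-18770021 on the minus strand and holds 1 copy of TGACGTCA, which starts 221 bases before the gene start.
Jund promoter: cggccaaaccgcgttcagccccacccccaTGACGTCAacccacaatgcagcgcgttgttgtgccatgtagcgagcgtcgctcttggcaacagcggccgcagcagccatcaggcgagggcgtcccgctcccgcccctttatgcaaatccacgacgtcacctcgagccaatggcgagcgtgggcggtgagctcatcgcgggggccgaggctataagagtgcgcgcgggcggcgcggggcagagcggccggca
The match is a description of these letters and was not tied to any measurement on the arrays.

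Atf3, a stress- and injury-induced factor of the same protein class, lay on opposite sides of sham on the 2 days. Its spot read 769.6 intensity units at day 1 and 3341.4 at day 7, against 1637.9 in sham. All 3 arrays were separated by more than the scanner error, in the order day 7, sham, day 1. The log2 fold was -0.97 ± 0.21 at day 1 against sham, just inside 2-fold, and 1.03 ± 0.20 at day 7 against sham, just outside it. Between the days it was 2.00 ± 0.21, or 4.01-fold higher, and 98.7% of measured genes had a lower fold. The nearest patterns were those of Shox2 (0.17 log2 units away), Apoc1 (0.27) and Abhd17a (0.29), with the same limits as for Fos.

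Some, though not all, markers of choroid plexus, the secretory tissue of the neighbouring ventricle, were also high at day 7. Of 4 named markers, 3 were above background on each array, and their summed intensity was 2709.3 at day 1, 6985.8 at day 7 and 3912.1 in sham. Sostdc1 was at 1.86 and Folr1 at 1.72 at day 7 against sham, Ttr at -0.10, and Kl was above background on no array. At day 1 against sham, Ttr was at -1.20, Sostdc1 at 0.10 and Folr1 at 0.75. Other lists held genes higher at day 7 too. At least 2-fold higher than sham were 2 of 3 measured GABA neuron markers, 2 of 5 astrocyte markers and 1 of 2 measured blood markers. Among all measured genes, 11.1% were higher and 5.73% lower by this size, and these lists are too short to set against such shares. At least 2-fold lower than sham at day 7 were 1 of 5 oligodendrocyte markers and Slc6a5, the only glycine neuron marker, at -5.26. The part of any of these cells in the Atf3 and Jund values was not tested.

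**Figure D3:**
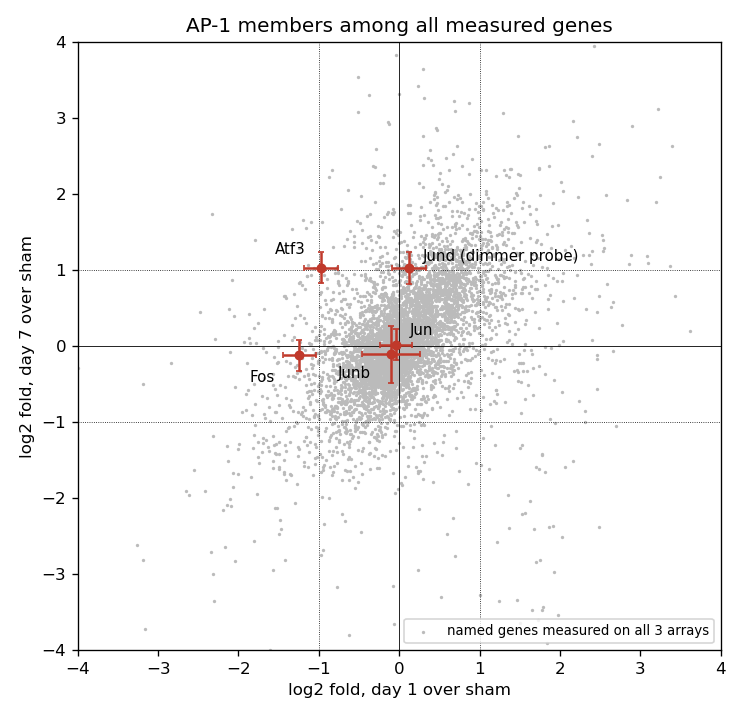
Log2 fold at day 1 over sham (horizontal) against day 7 over sham (vertical) for 6047 named genes measured on all 3 arrays (grey; 18 lie outside the axes) and for the measured AP-1 probes (red, with scanner errors). Both axes share the sham array, Fos lies at -1.24 and -0.12, Atf3 at -0.97 and 1.03, and the dotted lines mark 2-fold.

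Within-array errors understate the uncertainty of a single probe. For day 1 over sham, 1139 genes had a pair of measured probes. By the brighter one 74 of them passed 2-fold, of which 48 had the same sign and 17 also passed 2-fold by the other. For day 7 over sham the counts were 89, 58 and 26. Fos, Fosl1 and Atf3 each had 1 probe on 1 spot, so none of their differences had a second reading.

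Other ways of processing the same spots kept the direction of Fos at day 1 and of Atf3 on both days. Over 12 alternatives the log2 fold of Fos at day 1 ranged from -1.36 to -0.97, and it fell short of 2-fold only under normexp background correction. Alternatives of probe choice, probe filter, outlier spots and saturation could not change the fold of Fos or Atf3, each read from 1 spot of 1 probe. The ranges of these genes therefore come from scaling, background correction and the authors' series table alone. Atf3 at day 1 against sham was dropped by the filter to brighter probes, which left 11 alternatives for that fold. The fold of Atf3 at day 7 against day 1 ranged from 1.92 to 2.12, and that of Fos from 1.10 to 1.24. Against sham, Atf3 ranged from -1.09 to -0.96 at day 1 and from 0.91 to 1.06 at day 7. Its call at 2-fold thus depended on the scaling and, at day 7, also on background correction, while its direction did not. Fos at day 7 against sham ranged from -0.25 to 0.14, the positive value coming from normexp. The dimmer Jund probe ranged from 0.91 to 1.06 at day 7 against sham.

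**Figure D4:**
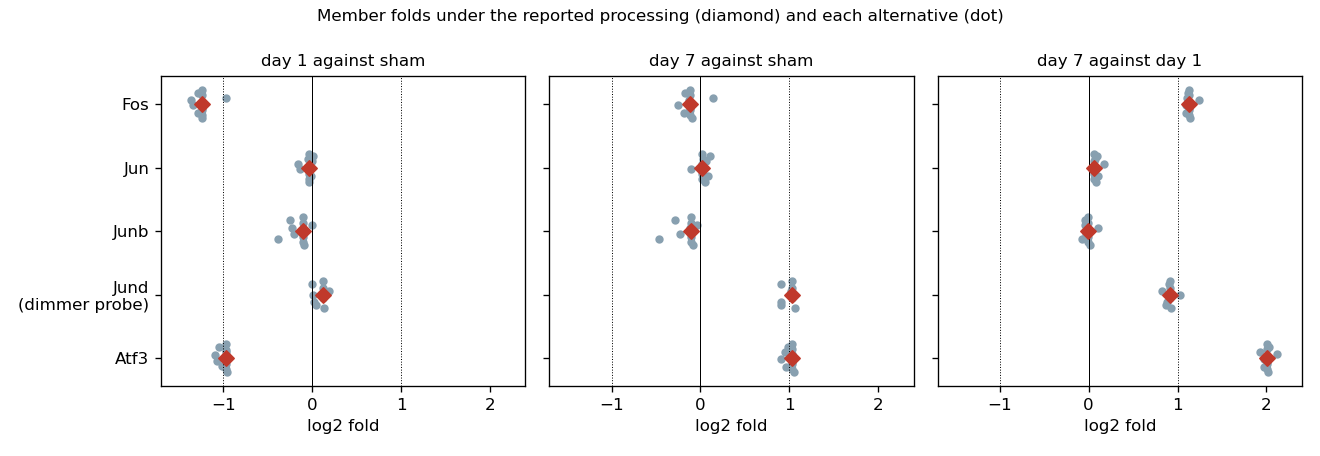
Log2 fold of each measured AP-1 probe in the 3 comparisons, as reported (diamond) and under each alternative processing (dots), with dotted lines at 2-fold. Fos at day 1 stays between -1.36 and -0.97, and Atf3 at day 7 against day 1 between 1.92 and 2.12.

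Other bZIP proteins, some of which pair with Jun or Fos, were mostly near sham. Of 28 listed, 16 were named on the array. At day 1, 11 were measured and none passed 2-fold in either direction, with a median log2 fold of -0.31, beside 12.6% past 2-fold and a median of 0.00 over all measured genes. On the later array 2 of 10 were higher, none was lower and the median was 0.08, beside 11.1% higher, 5.73% lower and a median of 0.05 over all measured genes. These were Jdp2 (0.79 at day 1 and 1.23 at day 7), a Jun dimerization partner that represses AP-1 sites, and Batf3 (0.76 and 1.10), which pairs with Jun proteins in immune cells. Maf, a large Maf factor, was at -0.56 and 0.95.

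Kinases that feed into AP-1, with the scaffold protein Mapk8ip1 counted among them, were all measured, 16 of the 30 listed being named. At day 1, 3 were higher and 0 lower (median 0.08), and at day 7, 2 were higher and 1 lower (median 0.11). Among all measured genes, the day 1 shares were 8.26% up and 4.37% down, and those of day 7 were 11.1% up and 5.73% down. Of these 16 genes, the counts past 2-fold were thus near that background at day 7. At day 1 the higher count was above its share, on 3 genes only. For Map3k1 and Mapk9, which are among these, other probes stayed within 2-fold at day 1. Map3k1, which activates the Jun kinase cascade, was at 1.48 at day 1 and 2.27 at day 7, but its dimmer probe gave -0.35 and -2.70. Map2k7, the kinase dedicated to Jun kinases, was at 1.13 and 0.70. Map2k4, the other kinase of Jun kinases, was at -0.27 and -1.23, with -0.22 and -0.27 by its other probe. Mapk9 (1.03 at day 1, with -0.05 and 0.13 by further probes) and Map2k5 (1.03 at day 7) were the others beyond 2-fold and are named on account of these values.

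Among factors that bind the Fos and Jun promoters, with the coactivators Crebbp, Crtc1 and Crtc2 counted among them, 9 of 20 were named and all 9 were measured. The listed serum response factor (Srf) and Elk factors were not named, so the counts do not cover them. At day 1, 2 were higher and 0 lower (median 0.01), and at day 7, 1 was higher and 0 lower (median -0.04), beside 8.26% higher and 4.37% lower among all measured genes at day 1 and 11.1% and 5.73% at day 7. Creb1, the cAMP-responsive activator of Fos, was at 1.71 at day 1 and 1.39 at day 7, and its second probe gave 1.28 and 1.58, so that both probes lay above 2-fold on both days. It was dim, at 275.5 intensity units at day 1 and 239.2 at day 7, against 91.3 in sham. Mef2d, an activity-regulated activator of Jun, was at 2.59 and 0.82 on 1 spot, and Mef2a at 0.11 and 0.80. The day 1 array thus held a higher Creb1 signal beside a lower Fos signal than sham.

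Ubiquitin ligases and phosphatases that end AP-1 signalling had 7 of 13 genes named and 6 measured. Det1 was the only named gene from the ubiquitin ligase part, so the counts describe mainly phosphatases. None of the 6 passed 2-fold at day 1 (median -0.04), and 1 was higher and 0 lower at day 7 (median -0.07), beside 12.6% and 16.9% of all measured genes past 2-fold on these days. The other named gene, Dusp1, a phosphatase of the Jun kinases, is not in these counts because it was well above background in sham alone. It was at least 2.73-fold lower at day 1 and at least 2.64-fold lower at day 7 than in sham. Dusp2, a nuclear phosphatase of MAP kinases, was at 0.84 at day 1 and 1.39 at day 7, Dusp6 at -0.66 and -0.88, and Dusp4 at 0.63 and 0.69.

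Genes described as AP-1 targets differed in both directions. Of 30 listed, 26 were named and 18 measured. At day 1, 4 were higher and 0 lower (median 0.20), and at day 7, 4 were higher and 2 lower (median 0.15). Over all measured genes the shares were 8.26% up and 4.37% down on the day 1 array, against 11.1% up and 5.73% down on the day 7 array. Pdyn, the opioid precursor prodynorphin, was at 2.04 on both days, reading 1974.1 intensity units at day 1 and 2141.9 at day 7, against 522.3 in sham. Cd44, an adhesion receptor, was at 0.78 and 1.90. Vegfa, a vascular growth factor, was at 1.79 and -3.44 by its brighter probe but at 0.25 and -0.63 by the other. Bcl2l11, a death-promoting protein controlled by Jun, chosen after its values were seen, was well above background at day 7 alone. It read 24.0 intensity units at day 1, 135.5 at day 7 and 14.7 in sham, at least 2.03-fold higher at day 7 than in sham. Against day 1 the bound was only 1.15-fold, and the day 7 reading was close to that array's dimmest called signal of 121.6.

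Genes that rise together with Jun and Atf3 in neurons with cut axons had 15 of 21 named. At day 1, 2 of 11 measured were higher and 0 lower (median 0.14), and at day 7, 2 of 12 were higher and 0 lower (median 0.25). This stood beside all-gene shares of 8.26% up and 4.37% down at day 1, then 11.1% up and 5.73% down at day 7. Probes of the same gene did not always match. Smad1 was at 0.14 and 0.59 by the probe counted but at 1.72 and 1.25 by the dimmer one. Itga7 was at -0.03 and 0.17 by the probe counted but at 0.98 and 1.28 by the dimmer one. Gal, the neuropeptide galanin, was at 0.59 at day 1 and 2.06 at day 7 on 10 spots per array. Ecel1, a neuronal protease of injured nerve cells, was at 2.39 and 1.26 on 1 spot, and Adcyap1, the neuropeptide PACAP, at 1.15 and 0.22 on 10 spots, with 1.48 and 1.25 by its other probes at day 1. Gap43, the growth-cone protein, chosen after its value was seen, was at 0.07 and 0.47. Hspb1 and Csf1, chosen in the same way, lay below sham on both days, at -0.42 and -0.66 for Hspb1 and -0.56 and -0.60 for Csf1. Ankrd1, a gene that rises in injured neurons, likewise chosen for its values, was well above background at day 7 alone. It read 23.7 intensity units at day 1, 271.1 at day 7 and 15.3 in sham, at least 4.06-fold higher at day 7 than in sham. Each of the list counts rests on 4 genes or fewer in a direction and is a description only.

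**Figure D5:**
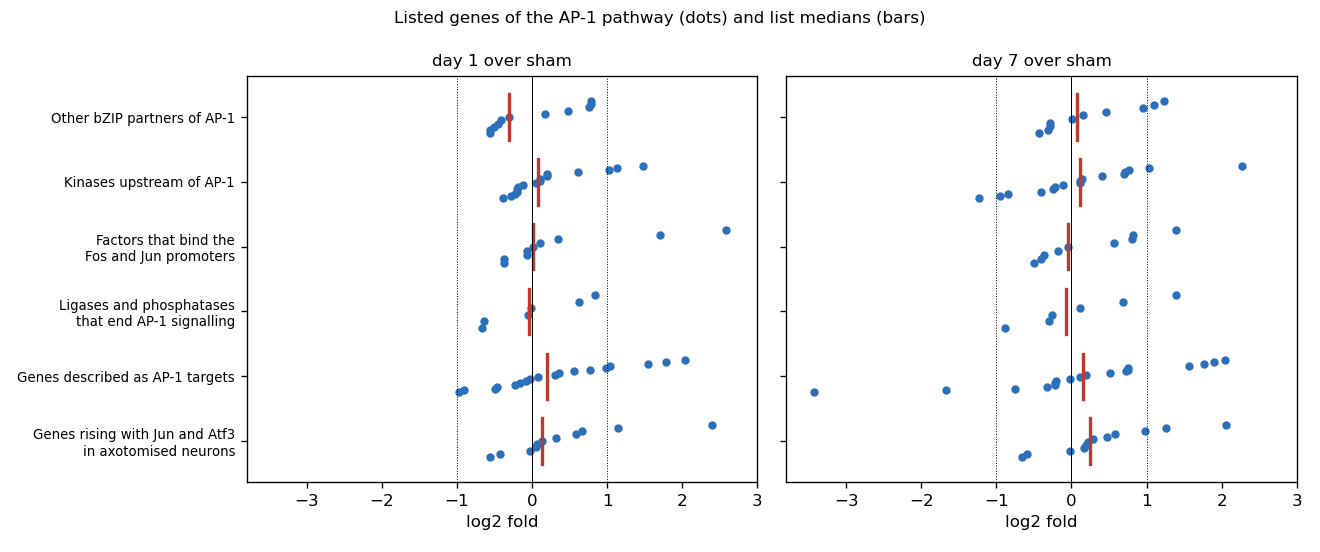
Log2 fold of each measured gene (dot) in 6 lists of the AP-1 pathway, at day 1 over sham and day 7 over sham, with the list median (bar) and dotted lines at 2-fold. Medians lie between -0.31 and 0.25, and the single lowest dot is Vegfa at day 7.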

How the data were processed

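Total RNA (1 µg per array, per the labels) was labelled with Cy3 and hybridised to Agilent rat arrays. Per the file headers, the authors' scanner files were made with Feature Extraction 10.7.3.1, whose processed intensity is background-subtracted, on a linear scale and not scaled between arrays. The deposited flags mark signal above background, saturation and outlier spots. The authors' series table holds 34687 probes, and its intensity equalled the scanner value within 0.1 percent for the 34438 probes on 1 spot, which were the ones compared.

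Of 41012 probes, 10768 were named through RefSeq accessions (GRCr8 table). Outlier spots were left out, spots of a probe were averaged as log2, and the log2 75th percentile of all non-control spots was subtracted. A gene was read by its brightest probe. Replicates did not exist, so no test was run. Members and lists were chosen with earlier results of these data known. In each list the genes named are up to 3 with the largest fold on either day, and nearest patterns were sought for Fos, Jun and Atf3. Alternatives covered scaling, background (normexp in limma 3.58.1, offset 50, on median pixels, as the mean is not in the files), probe filters, probe choice and the 1.5-fold size. The calculation was tested on simulated data. Python 3.11.15 and R 4.3.3 were used. Some listed genes were not analysed here.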

Additional observations from a re-analysis of the deposited data

Results flagged for a closer look

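Atf3 was singled out because its value lay on opposite sides of sham on the 2 days by more than the scanner error, at -0.97 log2 at day 1 and 1.03 log2 at day 7. Each value comes from 1 spot on 1 array, both use the same sham array, and the difference between them was not tested.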

How the results depend on the processing

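The count of members past 2-fold at day 1 against sham, 1 as reported (Fos), was 2 at the 1.5-fold size, under median scaling, quantile normalization, cyclic loess and no scaling, and with no filter on dim probes, and 0 under normexp. At day 7 against sham, 1 as reported (Atf3), it was 2 with the mean of measured probes, with no filter on dim probes and with the brightest measured probe (an alternative added after seeing the data), and 0 under median scaling, quantile normalization, cyclic loess and normexp. These moves reflect Atf3, Fos and the dimmer Jund probe lying close to 2-fold, or, with no filter, Fosl1 being counted. No member's fold past 2-fold changed sign under any alternative that was run. The count of all measured genes, 795 at day 1 and 1057 at day 7 against sham and 730 between the days, was 1888, 2305 and 1731 at the 1.5-fold size, 289, 387 and 312 with only brighter probes, and 1569, 1983 and 1571 with no filter on dim probes. The share of higher genes among all past 2-fold was 65.4% for day 1 over sham, and 55.4% under median scaling and 53.6% without scaling. For day 7 over sham it was 66.0%, and 54.2% under median scaling, 55.2% under cyclic loess and 50.4% with only brighter probes. For day 7 over day 1 it was 55.2%, and 66.0% without scaling. Leaving arrays unscaled put the median of all log2 folds at -0.12 for day 1 over sham and at 0.15 for day 7 over day 1. The bound of Fosl1 at day 1 over sham ran from 6.01-fold to 8.18-fold, and that of day 7 under day 1 from 3.01-fold to 4.78-fold. No paired analysis was possible because each group had 1 array. Leaving out a replicate was not possible for the same reason.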
